A study of Caenorhabditis elegans with 12 samples.

Results

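The genes described here are the Hedgehog-related and Patched-related genes of the nematode Caenorhabditis elegans and were selected by gene name. A gene was a member when its name on the array began with wrt, grd, grl, ptr or ptc followed by a number, or was hog-1 or qua-1. This gave 84 of the 20018 genes measured, of which 58 encode ligand-related proteins (10 wrt, 16 grd, 30 grl, hog-1 and qua-1) and 26 encode receptor-related proteins (3 ptc and 23 ptr). Each level is the log2 of a gene's normalized array intensity, averaged over its features (sets of probes for one transcript), so a difference of 1 is a 2-fold difference in intensity.

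In many animals a secreted Hedgehog protein binds the membrane protein Patched and so releases signalling inside the receiving cell. The nematode genome lacks a clear Hedgehog and a clear Smoothened gene, yet holds large families of secreted relatives, the warthog (wrt), groundhog (grd), ground-like (grl), quahog (qua) and hog genes, of which some share the self-splicing Hog domain. Their presumed partners, the ptc and ptr genes, encode membrane proteins with a sterol-sensing domain, and many members of both kinds are known for expression in the epidermis and roles in moulting and in building the cuticle.

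Total RNA of whole worms was labelled with Cy3 and hybridised to 12 single-colour arrays, 1 for each of 3 strains in 4 conditions. The strains were LS292 with dys-1(cx18), which affects the worm's dystrophin, MT4930 with ced-1(n1995), which affects an engulfment receptor, and the wild type N2. All were grown on nematode agar at 23 °C and selected with detergent as dauer larvae, the resting larval stage, and dauers were loaded into the mission containers on fresh agar. Static flight worms (SS) spent 16.5 days in a static slot on board with microgravity and 1.92 mGy of radiation, and centrifuged flight worms (SC) spent the same flight in a 1 g centrifuge with 2.27 mGy. Ground control worms (GC) were kept in a static slot of the same hardware on Earth, starting 2 days later, for the same 16.5 days. Worms of these 3 groups were collected 7 h after the end and are called carried worms here. Transport control worms (TC) were held in a university incubator without transport, and the sources used here do not give their containers, duration or stage at collection.

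The labels state that technique was repeated but samples were not, so strain and array cannot be told apart within a condition and p-values measure only the spread between these arrays. The array medians were close, between 7.66 and 7.76 on the log2 scale. The mean intensity was lowest on the ced-1 ground control array, at 818.7, and lay between 915.7 and 987.0 on the other 11 arrays. The dys-1 transcript ran from 7.29 to 8.68 in the dys-1 mutant (n = 4) and from 7.25 to 8.17 in the other strains (n = 8), and the ced-1 transcript from 9.56 to 10.28 in the ced-1 mutant (n = 4) and from 9.89 to 10.68 in the others (n = 8). Both pairs of ranges overlapped, and what either allele does to its transcript is not given in the sources used here. The files have no detection flag, and 9 members, 3 of them receptor-related, had a mean level in the dimmest 25% of all genes (below 6.67). Other members lay below this bound only on some arrays, such as grl-19 in static flight, wrt-4 in the transport control and grd-9 on several carried arrays. Because whole worms were used, fewer cells of a type and less RNA per cell cannot be told apart.

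Across the 4 conditions, 22 of the 58 ligand-related genes passed a test of any difference, led by the ground-like genes grl-20, grl-9 and grl-17, with ranges of condition means of 4.59, 3.72 and 3.60. In a limma fit with condition and strain, 22 of the 84 members (26.2%) differed among conditions at a Benjamini-Hochberg adjusted p under 0.05, against 8.23% of all genes. All 22 were ligand-related: 13 of 30 grl, 6 of 16 grd and 3 of 10 wrt. Among the 26 receptor-related genes limma passed 0, with 8 (30.8%) at an unadjusted p under 0.05, against 22.9% of all genes at that unadjusted threshold. Whether ligand-related and receptor-related genes differ in this was not tested. The median range of the 4 condition means was 0.76 over the members and 0.51 over all genes.

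**Figure D1:**
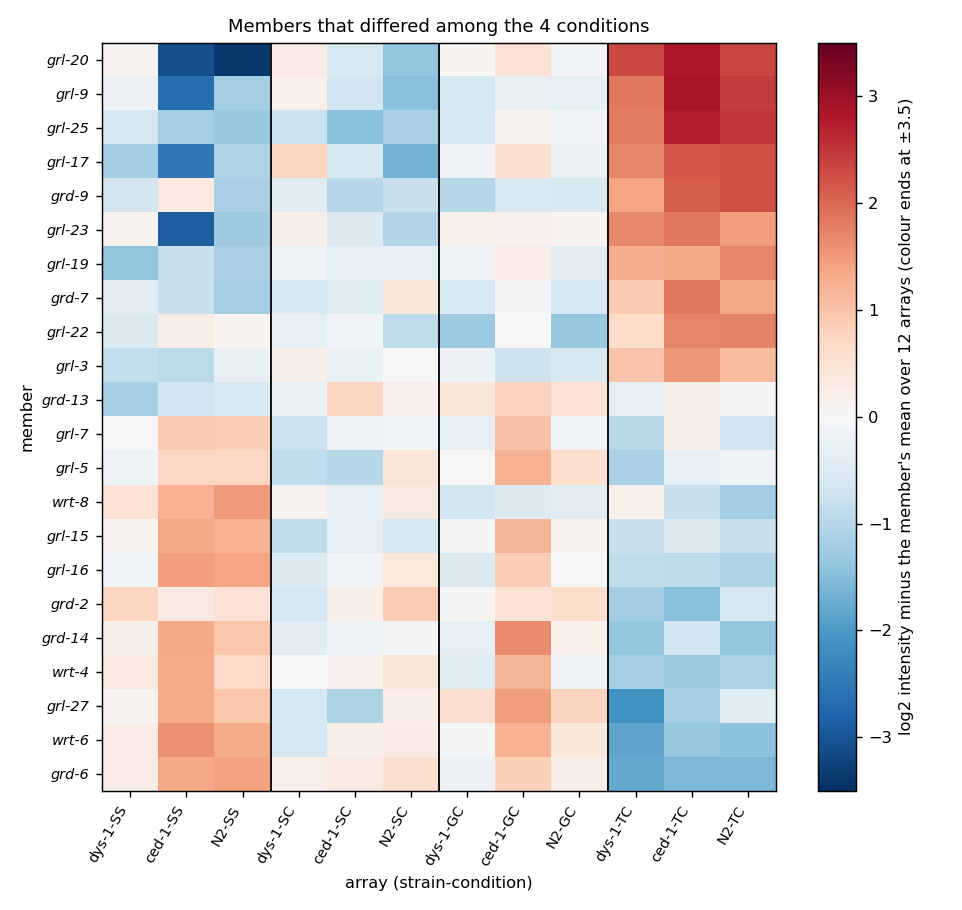
Levels of the 22 members that differed among conditions (rows) on each of the 12 arrays (columns, by condition and strain), as log2 intensity minus the member's mean over all arrays. The 3 transport control columns are high for the upper rows, such as grl-20, and low for the lower rows, such as grd-6, and dys-1-SS differs from the other static flight arrays in grl-20, grl-9 and grl-23.

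More members passed between carried worms and the transport control, set as 9 against 3 arrays, than in any other comparison. Of the 84 members, 25 (29.8%) passed limma at an adjusted p under 0.05, against 12.5% of all genes. They were 16 lower in carried worms (background 6.0%) and 9 higher (background 6.47%). Each had the same sign in all 3 strains. The wrt genes that passed were both higher, the grd genes were split 4 lower and 3 higher, the grl genes were split 8 lower and 4 higher, and the 4 receptor-related genes that passed were all lower. The median difference over all members was −0.08, against 0.00 over all genes. The median absolute difference over all members was 0.37, against 0.44 between the ground control and the transport control alone.

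Ground-like genes led the members that were low in carried worms. The level of grl-25 was 8.29, 7.70 and 7.57 in the dys-1, ced-1 and wild-type arrays of static flight, 8.12, 7.44 and 7.76 in centrifuged flight and 8.28, 9.0 and 8.78 in the ground control, against 10.70, 11.62 and 11.35 in the transport control. The highest carried array lay well below the lowest transport control array, and the difference was −3.12 ± 0.26 log2 units (SE, 9 against 3 arrays, 8.69-fold lower, limma adjusted p = 3.95e-06). In the same strain order, grl-20 had 12.20, 9.03 and 8.73 in static flight, 12.40, 11.57 and 10.76 in centrifuged flight and 12.17, 12.60 and 12.02 in the ground control, against 14.40, 14.90 and 14.45 in the transport control. Here again no carried array reached the transport control, but the dys-1 static flight array lay within the ground control range while the other static flight arrays lay far below it. The difference was −3.31 ± 0.46 (9.89-fold lower, limma adjusted p = 0.000253). Likewise, grl-9 had 9.93, 7.50 and 8.96 in static flight, 10.32, 9.47 and 8.67 in centrifuged flight and 9.53, 9.88 and 9.83 in the ground control, against 11.97, 12.99 and 12.59 in the transport control. The groups did not overlap, and the difference was −3.18 ± 0.41 (9.04-fold lower, limma adjusted p = 0.000141).

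The other large falls in carried worms followed the same pattern. For grl-17 carried arrays ran from 7.18 to 10.42 with a median of 9.12, against 11.37, 11.81 and 11.89 in the transport control, a difference of −2.69 ± 0.40 (limma adjusted p = 0.000495). For grl-23 carried arrays ran from 7.25 to 10.34 with a median of 10.20, against 11.83, 11.99 and 11.59, a difference of −2.22 ± 0.37 (limma adjusted p = 0.00133). The groundhog gene grd-9 had 6.65, 7.65 and 6.17 in static flight, 6.87, 6.29 and 6.52 in centrifuged flight and 6.30, 6.77 and 6.75 in the ground control, against 8.68, 9.43 and 9.54 in the transport control, with a difference of −2.55 ± 0.27 (5.88-fold lower, limma adjusted p = 2.76e-05). In these 3 genes no carried array overlapped the transport control. The remaining ligand-related falls were 3 grl and 3 grd genes, from −1.92 in grl-19 to −1.11 in grd-8. For grd-4 the difference was −1.22 ± 0.31, or −0.60 without the ced-1 transport control array, when it no longer passed.

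The members higher in carried worms were led by grd-6 and wrt-6. The groundhog gene grd-6 had 11.30, 12.41 and 12.46 in static flight, 11.21, 11.37 and 11.60 in centrifuged flight and 10.84, 11.88 and 11.29 in the ground control, against 9.25, 9.46 and 9.48 in the transport control. Every carried array lay above every transport control array, and the difference was 2.20 ± 0.21 (4.59-fold, limma adjusted p = 1.18e-05). The warthog gene wrt-6 had 11.38, 12.72 and 12.44 in static flight, 10.53, 11.35 and 11.41 in centrifuged flight and 11.09, 12.35 and 11.53 in the ground control, against 9.29, 9.80 and 9.70 in the transport control. These groups did not overlap either, and the difference was 2.05 ± 0.20 (4.14-fold, limma adjusted p = 1.18e-05). grl-27 was 1.65 ± 0.29 higher (limma adjusted p = 0.00183), but its carried arrays, from 8.32 to 10.89 with a median of 10.01, overlapped the 7.30, 8.27 and 8.99 of the transport control. wrt-4 was 1.57 ± 0.25 higher (limma adjusted p = 0.000908), with carried arrays from 7.25 to 8.98 with a median of 8.04, above the 6.50, 6.46 and 6.59 of the transport control. grd-14 and grd-2 were 1.52 ± 0.25 and 1.44 ± 0.24 higher, and grl-16, grl-21 and grl-15 from 0.91 to 1.29 higher. The grl-15 mean in centrifuged flight, 7.71, was close to the 7.65 of the transport control. Its rise lay in static flight, at 8.41, 9.65 and 9.54, and in the ground control, with a mean of 8.75.

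Of the receptor-related genes, 4 of 26 (15.4%) passed, against 12.5% of all genes. All 4 were lower in carried worms, against 6.0% of all genes. ptc-1, a Patched gene known for its role in germ cell division, had 10.86, 10.41 and 10.33 in static flight, 10.82, 10.77 and 10.13 in centrifuged flight and 10.46, 9.76 and 10.72 in the ground control, against 11.55, 11.19 and 11.39 in the transport control. No carried array reached the transport control, and the difference was −0.90 ± 0.22 (1.87-fold lower, limma adjusted p = 0.0154). ptc-2, which the reference annotation lists as a pseudogene, was −0.82 ± 0.23 (limma adjusted p = 0.0339), or −0.50 without passing when the wild-type transport control array was left out. ptr-22 had 8.85, 7.37 and 7.71 in static flight, 8.60, 8.73 and 8.20 in centrifuged flight and 8.65, 6.78 and 8.77 in the ground control, against 10.22, 10.29 and 8.90 in the transport control. The lowest transport control array lay just above the highest carried array, and the difference was −1.62 ± 0.38 (limma adjusted p = 0.0123). ptr-5 was −1.07 ± 0.28 (limma adjusted p = 0.0221), with carried arrays from 7.62 to 9.44 with a median of 8.51 that overlapped the 10.31, 9.80 and 8.67 of the transport control. ptc-3, a Patched gene essential for viability, was level at 10.88 ± 0.49 in static flight, 10.63 ± 0.11 in centrifuged flight, 11.11 ± 0.25 in the ground control and 11.08 ± 0.06 in the transport control (SD, n = 3 each), a difference of −0.21 ± 0.21 (limma adjusted p = 0.599).

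**Figure D2:**
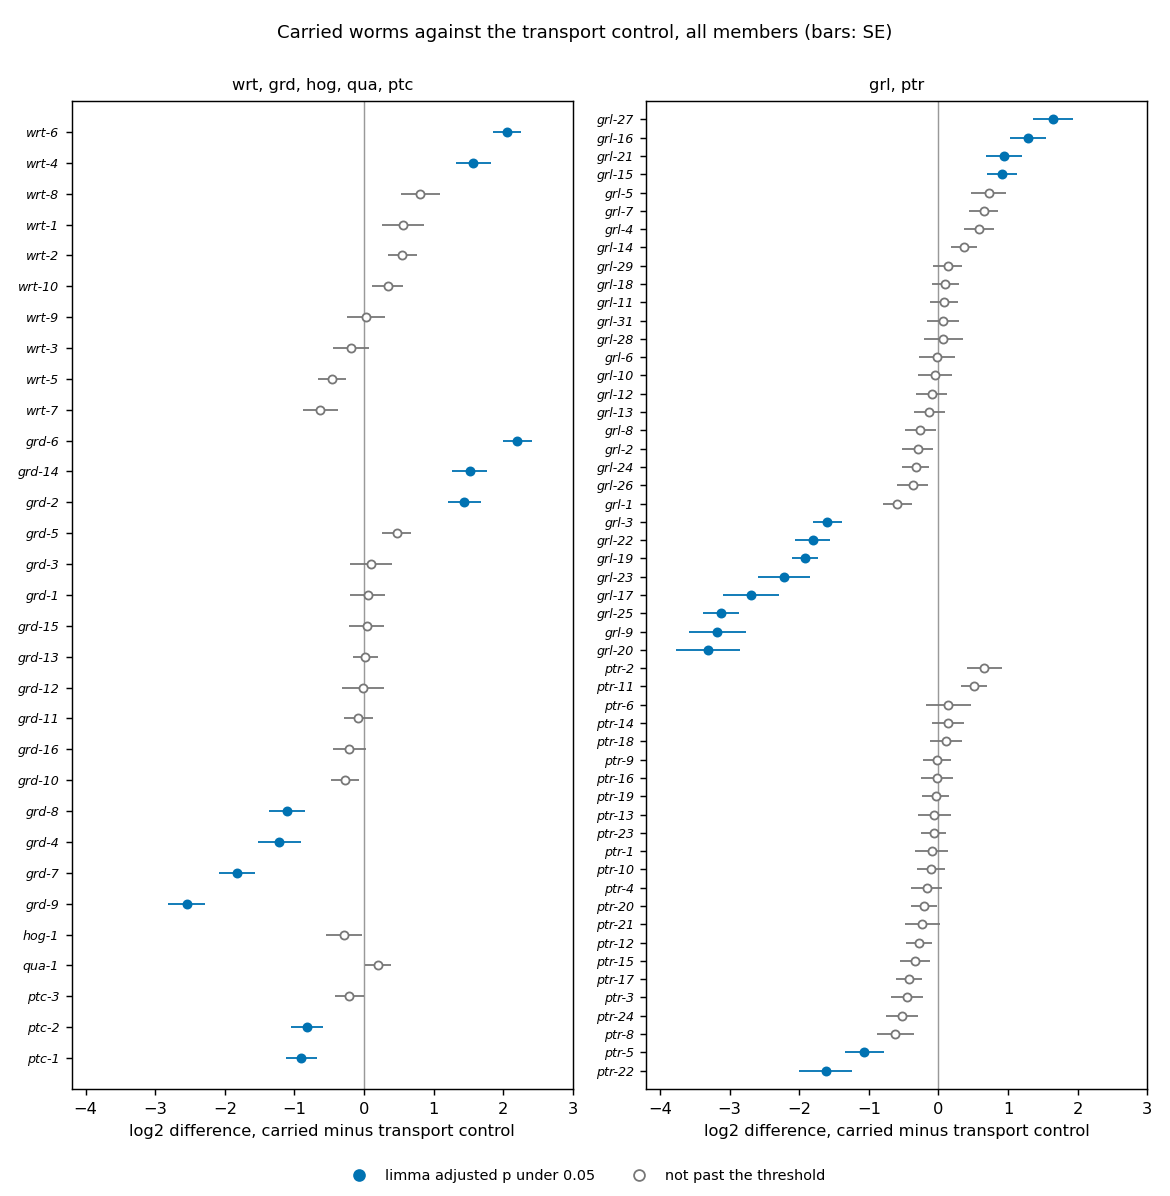
Difference between carried worms and the transport control (x axis, log2 units, bars are SE) for each of the 84 members, grouped by family and ordered by size. Filled points passed limma at an adjusted p under 0.05; 12 of the 30 grl genes are filled, spread from −3.31 in grl-20 to 1.65 in grl-27, while most ptr genes lie near 0.

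Between the extremes, 47 of the 84 members differed by less than 0.5 log2 units between carried worms and the transport control. Among them were hog-1 at −0.29 ± 0.26, qua-1, which is needed for moulting, at 0.20 ± 0.19, and the moulting gene ptr-4 at −0.17 ± 0.22 (limma adjusted p = 0.528, 0.57 and 0.704). The warthog genes wrt-10 and wrt-5 were at 0.34 ± 0.22 and −0.46 ± 0.20 (limma adjusted p = 0.352 and 0.16). Carried and transport control arrays did not overlap in 5 members that were higher and 14 that were lower in carried worms, against 4.69% and 3.56% of all genes. Of the 25 members that passed, 16 also passed with each array left out in turn. The other 9, grd-4, grd-8, grl-15, grl-16, grl-21, ptc-1, ptc-2, ptr-5 and ptr-22, no longer passed without the ced-1 transport control array, where the count was 16 and the share of all genes 4.86%, and some were also lost without another array. Within carried worms, static flight had the lowest mean in 12 of the 16 members that fell and the highest in 7 of the 9 that rose, against 59.2% and 88.4% of all genes that did so.

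Lists of stage and tissue markers were read beside the members. These lists were chosen with earlier results of these data known, so their counts, here and below, are a description and not independent support. Dauer cuticle, adult cuticle and sperm markers moved with these differences. Of 6 dauer cuticle markers, 5 fell in carried worms and 0 rose, and the mean level of the list was 7.59 to 9.09 on carried arrays against 10.14 to 10.66 on transport control arrays. cut-1, a dauer cuticlin, had 11.05, 8.07 and 8.17 in static flight, 10.80, 11.02 and 9.57 in centrifuged flight and 10.64, 11.69 and 10.91 in the ground control, against 13.44, 13.81 and 13.67 in the transport control. As for grl-20, grl-9 and grl-23, dys-1-SS lay above the other static flight arrays. All 4 adult cuticle markers counted rose in carried worms, with a list mean of 9.93 to 11.99 against 7.52 to 8.32. Of the sperm markers 4 of 5 rose, with 8.98 to 10.67 against 7.65 to 7.91. rol-6, chosen for both adult cuticle and larval hypodermis, was counted only under larval hypodermis in every comparison. Its mean was 10.26 in static flight, 9.52 in centrifuged flight, 10.34 in the ground control and 9.19 in the transport control. Of the other tissue lists, 1 of 5 larval hypodermis, 1 of 5 intestine and 1 of 5 germline markers rose. Conversely, 2 of 5 seam, 2 of 6 glia and 2 of 5 neuron markers fell. Limma passed 0 of 4 body wall muscle and 0 of 5 oocyte and embryo markers. At an unadjusted p under 0.05 these counts were 0 of 4 and 4 of 5, the latter 3 higher and 1 lower. The transport control arrays differed among themselves here, with oocyte and embryo list means of 9.29 (dys-1), 9.27 (ced-1) and 11.13 (wild type). These lay on both sides of the carried range, 10.02 to 11.07. Germline list means were 9.45, 9.39 and 10.48 in that order, against 10.13 to 10.81 on carried arrays. No marker was at 0, since the lowest intensity in the files was 39.8. The part of stage or tissue make-up in the members' differences was not tested.

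**Figure D3:**
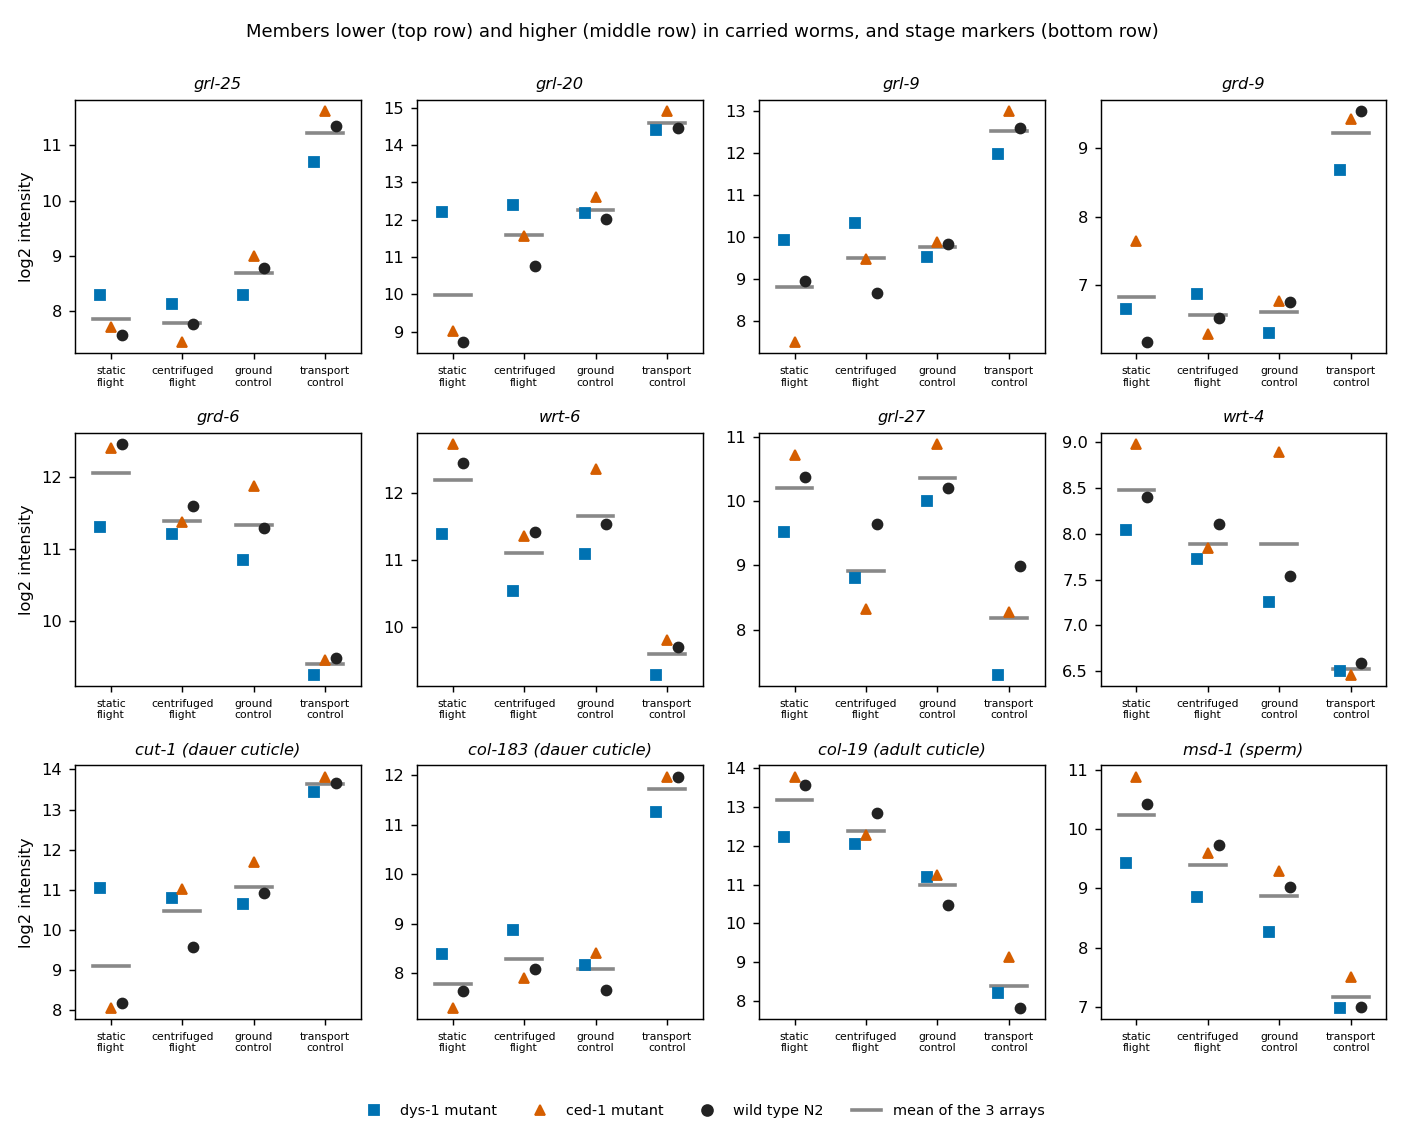
Log2 intensity (y axis) on each array by condition (x axis) for 4 members lower in carried worms (top), 4 higher (middle) and 4 stage markers (bottom); symbols mark strains and grey bars the mean of 3 arrays. The transport control stands apart in every panel except grl-27, on the dauer marker side for grl-25, grl-20, grl-9 and grd-9 and on the opposite side for grd-6, wrt-6 and wrt-4.

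The ground control was also compared with the transport control alone, a comparison that involves no flight and shares its arrays with the one above. Here 19 of 84 members (22.6%) passed limma, 8 higher and 11 lower in the ground control, against 5.34% of all genes (3.09% higher and 2.25% lower). The largest falls were grl-9 at −2.77 ± 0.50, grd-9 at −2.61 ± 0.34 and grl-25 at −2.54 ± 0.31 (limma adjusted p = 0.0045, 0.000401 and 0.000316). The 3 strains gave nearly equal values for grl-25, from −2.62 to −2.42, and for grd-9, from −2.79 to −2.39. The largest rises were grl-27 at 2.18 ± 0.36, wrt-6 at 2.06 ± 0.24 and grd-6 at 1.94 ± 0.26 (limma adjusted p = 0.0021, 0.000211 and 0.000479). grl-22 fell by 2.23 ± 0.31 log2 units and grl-5 rose by 1.13 ± 0.31, and of the receptor-related genes ptc-1 (−1.06 ± 0.27) and ptr-22 (−1.74 ± 0.46) passed, ptr-22 at −1.08 without the ced-1 ground control array, when it no longer passed. grl-20 (−2.32 ± 0.56), grl-17 (−1.95 ± 0.49), grd-14 (1.64 ± 0.30), grd-2 (1.46 ± 0.30) and wrt-4 (1.38 ± 0.31) also passed. Leaving out ced-1-GC, the array with the lowest mean intensity, gave a count of 12 (2.95% of all genes), and leaving out ced-1-TC gave 11 (2.46% of all genes). In the same comparison 4 of 6 dauer cuticle markers fell and 4 of 4 adult cuticle and 4 of 5 sperm markers rose, and their part in the members' values was not tested.

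Among the worms kept in the mission hardware, static flight was set against the ground control, which takes microgravity, radiation, launch and landing together. Only grd-13, a groundhog gene, passed, 1 of 84 members (1.19%) against 0.21% of all genes (0.02% lower). Its level was 9.92, 10.41 and 10.56 in static flight, against 11.48, 11.90 and 11.60 in the ground control, 10.85, 11.84 and 11.26 in centrifuged flight and 10.77, 11.32 and 11.12 in the transport control. Static flight was below every array of the other conditions, and the difference from the ground control was −1.37 ± 0.22 (2.58-fold lower, limma adjusted p = 0.0406). The call was lost with 10 of the 12 arrays left out singly (limma adjusted p up to 0.289, difference −1.51 to −1.25) and held without ced-1-SC and without the wild-type transport control array. It was also lost with no strain term, with no variance moderation and with only the compared conditions fitted (limma adjusted p up to 0.15).

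Other members had differences of similar size that did not pass. wrt-8 had 9.10, 9.81 and 10.07 in static flight, against 7.94, 8.12 and 8.20 in the ground control, with no overlap and a difference of 1.58 ± 0.35 (limma adjusted p = 0.0809). grl-19 had 5.81, 6.38 and 6.06 in static flight, against 7.06, 7.45 and 6.84 in the ground control, also with no overlap, at −1.03 ± 0.24 (limma adjusted p = 0.0868). Its static flight levels were dim, all below 6.67. grl-17 was at −1.65 ± 0.49, grl-20 at −2.27 ± 0.56 and grl-23 at −1.47 ± 0.46 (limma adjusted p = 0.184, 0.102 and 0.201). For grl-20 and grl-23 the dys-1 strain was near 0, at 0.04 and −0.06, while the ced-1 strain was at −3.56 and −3.03 and the wild type at −3.29 and −1.33. grl-22 and grl-16 were at 0.82 ± 0.31 and 0.79 ± 0.32 (limma adjusted p = 0.305 and 0.356). At an unadjusted p under 0.05 there were 12 members, 6 higher and 6 lower (14.3%), against 11.7% of all genes (8.33% higher and 3.38% lower), and all 12 were ligand-related. The groups did not overlap in 9 members, against 14.1% of all genes. In the same comparison 2 of 4 adult cuticle markers and 1 of 5 sperm markers rose and 0 of 6 dauer cuticle markers passed limma, with 2 of these lower at an unadjusted p under 0.05, and their part in these values was not tested.

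**Figure D4:**
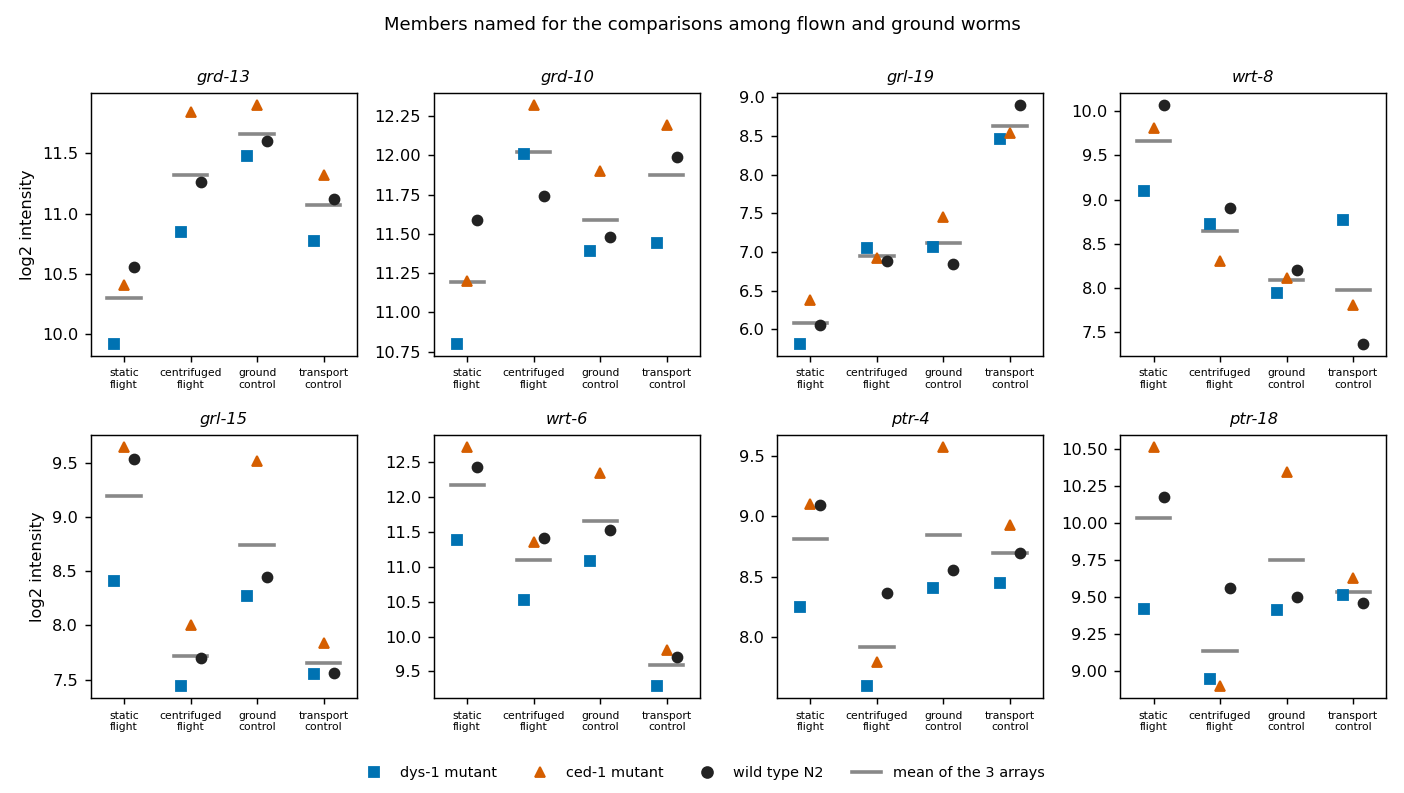
Log2 intensity (y axis) on each array by condition (x axis) for 8 members; symbols mark strains and grey bars the mean of 3 arrays. grd-13 and grl-19 are lowest and wrt-8 is highest in static flight on average, and the ptr-4, ptr-18 and wrt-6 means are lower in centrifuged flight than in static flight and the ground control.

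Static flight was next set against centrifuged flight, which holds launch, landing and cabin in common and changes gravity, with doses of 1.92 and 2.27 mGy. By limma 0 of 84 members passed, against 0.005% of all genes. At an unadjusted p under 0.05 there were 24 (28.6%), 18 higher and 6 lower in static flight, against 12.0% of all genes (7.94% higher and 4.02% lower). The groups did not overlap in 13 members, against 13.4% of all genes. The ground-like gene grl-15 had 8.41, 9.65 and 9.54 in static flight, against 7.44, 8.0 and 7.70 in centrifuged flight, with no overlap. Its difference was 1.49 ± 0.27, the largest positive difference among the members (limma adjusted p = 0.0824). wrt-6 had 11.38, 12.72 and 12.44 in static flight, against 10.53, 11.35 and 11.41 in centrifuged flight, where the groups overlapped at the dys-1 static flight array, and every strain was higher in static flight, by 0.85 to 1.37, at 1.08 ± 0.24 overall (limma adjusted p = 0.104). grl-27 was at 1.29 ± 0.36 (limma adjusted p = 0.154), of which the ced-1 strain gave 2.40 and the other strains 0.72 and 0.74.

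On the lower side of static against centrifuged flight stood grl-20 at −1.59 ± 0.56 and grd-13 at −1.02 ± 0.22 (limma adjusted p = 0.267 and 0.104). grl-23 was at −0.91 ± 0.46 (limma adjusted p = 0.462), with −2.39 in ced-1 but −0.09 in dys-1 and −0.23 in the wild type. The moulting gene ptr-4 had 8.25, 9.10 and 9.09 in static flight, against 7.60, 7.80 and 8.37 in centrifuged flight, and ptr-18 had 9.42, 10.51 and 10.17 in static flight, against 8.95, 8.90 and 9.56 in centrifuged flight. Both overlapped between groups. With ptr-2 they were the 3 receptor-related genes higher at an unadjusted p below 0.05: 0.78 ± 0.31 in ptr-2, 0.89 ± 0.27 in ptr-4 and 0.89 ± 0.28 in ptr-18, and each was higher in all 3 strains (limma adjusted p = 0.328, 0.193 and 0.216). ptr-18 is known to act in the epidermis with the ground-like protein GRL-7, whose gene was at 0.91 ± 0.25 with 0.75 to 1.03 in the strains (limma adjusted p = 0.153). ptr-18 and grl-7 were named after their values were seen. qua-1 and wrt-10 were at 0.70 ± 0.24 and 0.63 ± 0.26 (limma adjusted p = 0.244 and 0.366). With weights estimated for each array, 5 members passed, 3 higher and 2 lower, against 1.5% of all genes. Of the stage and tissue markers, 4 of 5 sperm (median difference 0.86), 2 of 4 adult cuticle (median 0.86) and 2 of 5 larval hypodermis markers (median 0.47) were higher in static flight at an unadjusted p under 0.05, and limma passed 0 of each. The part of these markers' tissues in the members' values was not tested.

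Centrifuged flight was set against the ground control, which compares flight at 1 g with no flight. By limma 0 of 84 members passed, against 0.035% of all genes. At an unadjusted p under 0.05 there were 14 (16.7%), 1 higher and 13 lower in centrifuged flight, against 6.02% of all genes (3.09% higher and 2.93% lower). The 13 lower ones were 4 grl, 1 grd, 2 wrt, 5 ptr and qua-1. grl-27 was at −1.45 ± 0.36, grl-5 at −1.07 ± 0.31, grl-15 at −1.04 ± 0.27, wrt-10 at −0.99 ± 0.26, ptr-4 at −0.93 ± 0.27 and qua-1 at −0.71 ± 0.24, each lower in all 3 strains (limma adjusted p from 0.448 to 0.719). In grl-27, grl-5, ptr-4, wrt-10 and qua-1 the ced-1 strain gave the lowest difference, at −2.57, −2.20, −1.77, −1.62 and −1.18, where the ced-1 ground control array was the highest of the 12 for grl-27, grl-5, ptr-4 and wrt-10. The 1 higher member was grd-3 at 1.09 ± 0.37, of which the ced-1 strain gave 2.36 and the wild type 0.03. wrt-8 and grl-3 were at 0.56 ± 0.35 and 0.52 ± 0.26 (limma adjusted p = 0.857 and 0.828). Of the 19 moulting and apical matrix genes, 7 were lower and 1 higher in centrifuged flight at an unadjusted p under 0.05 (median −0.34). Of 5 larval hypodermis markers, 2 were lower and 0 higher at that threshold, and their differences ran from −0.82 to −0.30. Of 4 adult cuticle markers, 2 were higher and 1 lower (median 0.35, from −0.74 to 1.41). Of 6 dauer cuticle markers, 1 was lower and 0 higher (median −0.47), and of 5 sperm markers, 1 was higher and 0 lower (median 0.12). By limma 0 of each of these lists passed, and their part in the members' values was not tested.

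Counted by condition means, centrifuged flight was the highest condition for 6 of the 84 members (7.14%) and the lowest for 29 (34.5%), against 19.2% and 17.3% of all genes. Static flight was highest for 23 (27.4%) and lowest for 23 (27.4%), against 31.1% and 27.2% of all genes. The ground control was highest for 20 (23.8%) and lowest for 13 (15.5%), against 16.2% and 24.4% of all genes. The transport control was highest for 35 (41.7%) and lowest for 19 (22.6%). Over all genes the transport control was highest in 33.6% and lowest in 31.1%. These shares are a description of means over 3 arrays, with no test. The steadiest members of each family had ranges of condition means of 0.11 in grd-12, 0.16 in ptr-23, 0.24 in grl-13, 0.26 in wrt-3 and 0.48 in ptc-3.

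The flown pair (SS and SC, 6 arrays) was also set against the ground pair (GC and TC, 6 arrays), a comparison that contains the transport control. In it 15 of 84 members (17.9%) passed limma, 5 higher and 10 lower, against 5.94% of all genes (4.28% higher and 1.66% lower), and all 15 were ligand-related. In the 26 receptor-related genes limma passed 0, with 4 (15.4%) at an unadjusted p under 0.05, against 19.2% of all genes. The largest differences were those of grl-20 at −2.64 ± 0.40, grl-25 at −2.14 ± 0.22 and grl-17 at −2.08 ± 0.35 on the lower side, and of grd-6 at 1.36 ± 0.18, wrt-8 at 1.12 ± 0.25 and wrt-6 at 1.02 ± 0.17 on the higher side (limma adjusted p from 9.6e-05 to 0.0152). grl-9, grl-23 and grl-19 followed at −1.99 ± 0.36, −1.79 ± 0.32 and −1.36 ± 0.17, and wrt-4 and grl-16 at 0.98 ± 0.22 and 0.85 ± 0.23. For the first 6 genes the flown arrays averaged 10.78 ± 1.58 in grl-20, 7.81 ± 0.33 in grl-25, 8.64 ± 1.09 in grl-17, 11.72 ± 0.57 in grd-6, 9.15 ± 0.67 in wrt-8 and 11.64 ± 0.81 in wrt-6. The ground pair averaged 13.42 ± 1.30 in grl-20, 9.95 ± 1.44 in grl-25, 10.71 ± 1.12 in grl-17, 10.37 ± 1.12 in grd-6, 8.04 ± 0.46 in wrt-8 and 10.62 ± 1.21 in wrt-6. The 6 flown and the 6 ground arrays overlapped in all 84 members, and did not overlap in 0.814% of all genes. Within the ground pair, wrt-6 averaged 11.65 in the ground control, level with the flown arrays, and 9.59 in the transport control. For grd-6 these means were 11.34 and 9.40. For grl-20, grl-25 and grl-17 the ground control averaged 12.26, 8.69 and 9.74, and the transport control 14.58, 11.22 and 11.69. Static flight against the ground control gave 1.58 in wrt-8 and −1.37 in grd-13. The ground against the transport control gave 0.10 in wrt-8 and 0.59 in grd-13. Leaving out ced-1-SS gave a count of 9 (3.23% of all genes), without grd-7, grd-13, grl-3, grl-16, wrt-4 and wrt-8. In the same fit 4 of 6 dauer cuticle markers fell (median −1.61), and 4 of 4 adult cuticle (median 1.83) and 4 of 5 sperm markers (median 1.45) rose, and their part in the members' values was not tested.

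Several members are neighbours in the reference gene order. grd-13, grd-3 and grd-10 follow each other with no gene between, and were at −1.02, −0.56 and −0.83 in static against centrifuged flight, of which grd-13 and grd-10 had an unadjusted p under 0.05. In static flight against the ground control they were at −1.37, 0.53 and −0.39, and in centrifuged flight against the ground control at −0.35, 1.09 and 0.43, so the neighbours did not keep a shared sign. grd-14 and grd-4 are adjacent and lay on opposite sides in carried worms, at 1.52 and −1.22. grl-9 and grl-8 are also adjacent, and were at −3.18 and −0.26 in the same comparison. Of the 6 members with more than 1 feature, grl-16, grl-7, ptc-3, ptr-12 and ptr-17 had features of 1 sign in carried worms, while those of wrt-5 were at 0.00 and −0.93, so the value of wrt-5 is a mean of features that disagree.

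Other genes of the pathway and of moulting were read beside the members. Of 14 other genes of the Hedgehog pathway and of sterol-sensing proteins, 1 passed in carried worms against the transport control: ncr-1, an ortholog of the cholesterol transport gene NPC1, fell by 0.84 ± 0.24 log2 units (limma adjusted p = 0.0339). Its transport control arrays were at 11.14 (dys-1), 9.65 (ced-1) and 9.41 (wild type). Carried arrays of ncr-1, from 8.60 to 9.91, overlapped the ced-1 and wild-type values. In the flown against the ground pair hhat-2, a relative of the acyltransferases that modify Hedgehog proteins, fell by 0.58 ± 0.15 (limma adjusted p = 0.0362). The list's median difference in carried worms was −0.20, against 0.00 over all genes. tra-1, the worm's relative of the Gli transcription factors, was at −0.12 ± 0.22 (limma adjusted p = 0.804). Of 19 moulting and apical matrix genes, 3 rose in carried worms, namely nas-37, mlt-7 and mlt-10, and bli-3 fell. nas-37, a protease of ecdysis, was at 0.99 ± 0.18 and bli-3, a dual oxidase that cross-links cuticle, at −1.20 ± 0.26 (limma adjusted p = 0.00244 and 0.0072). Of 15 moulting and heterochronic regulators, 4 fell and 0 rose: lin-28, nhr-25, blmp-1 and myrf-1, from −0.87 ± 0.22 in blmp-1 to −1.28 ± 0.29 in lin-28 among the 3 other than myrf-1, which was at −0.70 ± 0.18. For lin-28 the dys-1 transport control array, at 9.09, stood above the ced-1 and wild-type ones, at 7.53 and 7.57. The highest carried array of lin-28 was at 7.02. In static against centrifuged flight limma passed 0 of the 19 moulting and apical matrix genes, although 7 were on the higher side and 0 on the lower at an unadjusted p under 0.05.

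The strains were compared with condition in the fit. In dys-1 mutants against the wild type limma passed 0 of 84 members, against 0.0% of all genes, and 15 had an unadjusted p under 0.05 (17.9%), 5 higher and 10 lower, against 14.9% of all genes (7.59% higher and 7.28% lower). Ligand-related genes were lower in the dys-1 mutant in 47 of 58 cases, with a median of −0.28, and receptor-related genes were lower in 10 of 26 with a median of 0.14, while the median of all genes was −0.03. Tissue and stage markers also stood apart in the dys-1 mutant, with medians of −0.92 over oocyte and embryo (3 of 5 lower at an unadjusted p under 0.05), −0.69 over adult cuticle (3 of 4 lower), −0.55 over larval hypodermis (1 of 5 lower), −0.51 over sperm (3 of 5 lower) and 0.77 over neuron markers (3 of 5 higher). The oocyte and embryo gap was widest in the transport control, with list means of 9.29 in dys-1 and 11.13 in the wild type. The ced-1 transport control array was at 9.27. In the same order dys-1 and wild type had 10.47 and 11.07 in static flight and 10.02 and 10.34 in centrifuged flight. In the ground control they had 10.12 and 10.21. Limma passed 0 of these markers, and their part in the members' values was not tested. The largest differences with 1 sign in all 4 conditions were 0.88 ± 0.29 in ptr-5, 0.74 ± 0.40 in grl-23 and 0.71 ± 0.33 in grd-4 on the higher side (limma adjusted p = 0.22, 0.401 and 0.339). On the lower side were grl-5 at −0.96 ± 0.27, grl-27 at −0.90 ± 0.31 and ptr-2 at −0.83 ± 0.27 (limma adjusted p = 0.196, 0.226 and 0.211). The ptr-2 gap was widest in the transport control, with 9.43 in dys-1 and 11.37 in the wild type. In the same order it had 10.95 and 11.47 in static flight and 10.31 and 10.76 in centrifuged flight. In the ground control it had 10.56 and 10.96. In ced-1 mutants against the wild type limma passed 0 of 84 members, against 0.0% of all genes, and 4 had an unadjusted p under 0.05 (4.76%), against 5.29% of all genes. The median over the members was 0.08, and the differences ran from −0.63 ± 0.28 in grl-6 and −0.46 ± 0.26 in grd-2 to 0.54 ± 0.48 in grl-20 and 0.63 ± 0.26 in grd-15 (limma adjusted p from 0.908 to 0.919).

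**Figure D5:**
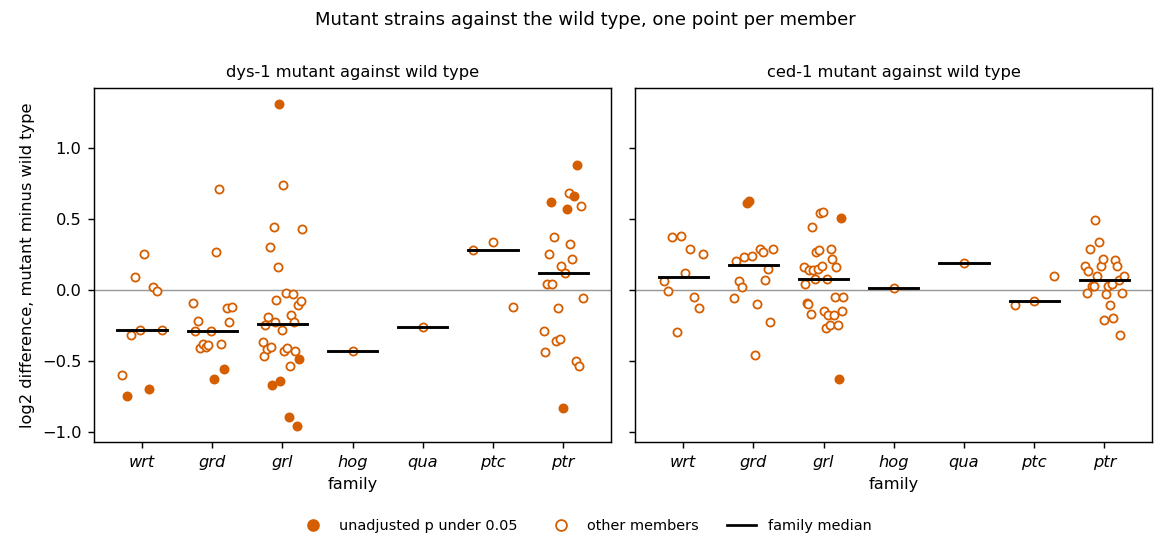
Difference between each mutant and the wild type (y axis, log2 units) for every member, by family (x axis); filled points had an unadjusted p under 0.05, and black bars are family medians. In the dys-1 mutant the wrt, grd and grl medians lie at −0.28, −0.29 and −0.24, and none of the points passed limma after adjustment.

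Whether flight acted differently in a mutant was tested with an interaction of strain and flight (flown against ground pair). This fit had no term for the 4 conditions, so differences within the flown pair and within the ground pair counted as spread. Members that differed between the ground and the transport control were thus hard to pass, and a count of 0 does not show equal responses. By limma 0 of 84 members passed for dys-1 and 0 for ced-1, against 0.0% of all genes for each, with 3 and 2 members at an unadjusted p under 0.05, against 2.29% and 3.08% of all genes. For grl-20, whose dys-1 static flight array lay apart, the dys-1 interaction was 2.51 ± 1.61 (limma adjusted p = 1), with parts of −0.98 in dys-1, −3.44 in ced-1 and −3.49 in the wild type. The position of dys-1-SS near the ground control in grl-20, grl-23 and cut-1 rests on a single array. The other flown dys-1 array, dys-1-SC, was also the highest centrifuged flight array in grl-20, at 12.40, and in grl-23, at 10.34. In cut-1 it was not, at 10.80 against 11.02 in ced-1-SC. With 1 array per strain and condition, a pattern of the dys-1 strain in flight was not tested beyond the interaction.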

How the data were processed

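Per the labels, each of the 12 samples is total RNA of whole worms, Cy3-labelled on a single-colour array; the deposited intensity of each feature, which the authors made by RMA per the submitters' processing notes, is linear and already background-corrected, normalized and summarised over 5 or 6 probes for the members. The software version is not given in the sources used here. From these deposited intensities the log2 was taken with no pseudocount, and features of one gene were averaged (91 features for 84 members), giving 20018 genes named through the reference gene table.

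The main model was limma (version 3.58.1, under R 4.3.3), in which each gene's log2 level depended additively on condition and strain over all 12 arrays (6 residual and 7.71 prior degrees of freedom), and p-values were adjusted by Benjamini-Hochberg over all genes, with 0.05 as the threshold of passing. The strain term is the replicate block, since same-numbered samples are the same strain; deviations of same-strain pairs correlated at −0.12 to 0.47 and those of different strains at −0.46 to 0.32. Strain by flight was fitted as an interaction, with no term for the 4 conditions. The fits were also run on simulated data with independent noise for each gene and array. The simulation held no shifts of whole arrays and no strain by condition differences, so it cannot speak to these. Tables and plots were made with Python 3.11.15, numpy 2.4.6, pandas 2.3.3 and matplotlib 3.10.9. The precision is limited by the number of arrays.

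The members, the marker and pathway lists and the tests were chosen with earlier results of these data known. By rule, named genes were the members that passed (where over 12 passed, the 6 largest in each direction), the 3 largest in each direction with 1 sign in every strain or condition, the steadiest and most variable member of each family, and hog-1, qua-1, ptc-1, ptc-3, ptr-4, wrt-5 and wrt-10. Some further members, such as grl-21, grd-8, ptc-2 and grd-10, and some values of named members in other comparisons were given outside this rule. Alternatives were no strain term, no variance moderation, trended and robust variance, array weights, only the compared conditions, median centring, quantile normalization, an offset of 50, the brightest feature per gene, only features of the series table, the dimmest 25% of genes left out, and each array left out.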

Additional observations from a re-analysis of the deposited data

Results flagged for a closer look

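In 4 members both flown arrays of one strain lay above both of its ground arrays, while in another strain both lay below. These 4 are 4.76% of the 84 members, against 9.5% of all genes. For grd-12 the flown minus ground pair difference was −0.30 log2 units in dys-1 and 0.95 in the wild type. For ptr-13 it was 0.48 in dys-1, against −0.41 in ced-1 and −0.51 in the wild type. For ptr-16 it was −0.12 in dys-1 and 0.30 in the wild type, and for wrt-3 it was 0.62 in dys-1 and −0.34 in ced-1. In the limma interaction fit all of these had an adjusted p of 1.0, and only grd-12 (both mutants against the wild type) and ptr-13 (dys-1 against the wild type) had an unadjusted p under 0.05. The direct contrast of dys-1 with ced-1 was not tested.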

How the results depend on the processing

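With each array left out in turn, the number of members that passed was 0 to 2 for static flight against the ground control (1 with all arrays), 11 to 21 for the ground against the transport control (19), 9 to 15 for the flown against the ground pair (15), 16 to 29 for carried worms against the transport control (25) and 16 to 25 for any difference among conditions (22). Without variance moderation the counts were 0, 7, 4, 13 and 6 in the same order, with 0.0%, 1.85%, 2.2%, 5.37% and 2.56% of all genes. With no replicate block (no strain term) they were 0, 14, 13, 21 and 19, with 0.005%, 3.49%, 3.99%, 9.1% and 5.83% of all genes, and the 0 of static against centrifuged flight, centrifuged flight against the ground control and both strain comparisons stayed 0. The 1 member of static flight against the ground control was also 0 with only the compared conditions fitted. Static against centrifuged flight gave 0 in every setting except array weights, which gave 5 (3 higher and 2 lower) and 1.5% of all genes, and the strain comparisons, centrifuged flight against the ground control and both interactions gave 0 in every setting run. Of the members that passed, those that also passed in every setting and with every array left out were 13 of 25 for carried worms against the transport control, 7 of 19 for the ground against the transport control, 4 of 15 for the flown against the ground pair and 6 of 22 among conditions. Over 64 named differences and 1438 recomputed values, 67 lost the threshold, 4 passed it newly and 0 changed direction; the cause was not tested. With 1 array per strain and condition, strain and array cannot be told apart, and 9 members in the dimmest 25% of genes have no detection flag.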
